A study of Mus musculus with 5 samples.

Results

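Cluster 10 of the deposited cell table, labelled here as type 2 innate lymphoid-like, held 377 of the 10275 CD45+ cells sequenced from mouse thyroid. Its members were all cells that carried cluster number 10 in the authors' clustering, and no further gene threshold was set. The study pooled thyroid immune cells from NOD mice, a strain prone to autoimmunity, after 4 weeks of repeated antibody injections started at 4 to 6 weeks of age. The ICI group (immune checkpoint inhibition) comprised 16 mice that received anti-PD-1 (clone RPM1-14) together with anti-CTLA-4 (clone 9D9) at 10 mg/kg per dose. The control group comprised 10 mice given isotype antibodies (clones 2A3 and MPC11). Male and female animals were used, both groups were NOD.WT, and no allele was engineered. Live CD45+ cells were sorted by flow cytometry from collagenase-digested, PBS-perfused thyroid and sequenced from the 5' end on the 10x Genomics platform. The ICI cells came as 4 libraries (ICI 1 to ICI 4) and the isotype cells as 1 library, and the labels do not say which mice went into which library, so p-values measure only the spread between the ICI libraries, which may be technical. Cluster 10 contributed 82, 60, 51 and 67 cells to ICI 1 to 4 and 117 to isotype.

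Type 2 innate lymphoid cells (ILC2s) are tissue-resident lymphocytes that lack a rearranged antigen receptor. They are known to respond to alarmins from stromal and epithelial cells, chiefly IL-33 through the receptor ST2 (gene Il1rl1), IL-25 and TSLP, and to depend on the transcription factor GATA3. Once stimulated they secrete IL-5, IL-13, GM-CSF (Csf2) and amphiregulin (Areg), which act on eosinophils, macrophages and epithelium.

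The cluster held 213427 to 276854 UMIs (unique molecular identifiers, the counted transcripts) in each ICI library and 389665 in isotype. Median UMIs per cell were 3440.5, 3845.5, 4915 and 3582 in ICI 1 to 4 and 3076 in isotype. For ICI 1, 2 and 3 the labelled cell numbers are 1688, 1234 and 1178, where the table holds 1523, 1219 and 1163. ICI 2 and ICI 3 shared 140 cell barcodes over all cells and 5 within cluster 10. In all, 17 cluster 10 cells carried a barcode that also occurs in another library. Over all cells, ICI 4 barcodes carried 2 suffixes, against 1 in each other library, which the labels do not explain. Libraries also differed in sex-linked transcripts. Xist, expressed from the inactive X chromosome of female cells, had a UMI in 40 of 82 cluster 10 cells of ICI 1, 21 of 60 of ICI 2 and 15 of 51 of ICI 3, and in 0 cells of ICI 4 and isotype. A UMI of 4 Y-linked genes was found in 15, 21, 15, 38 and 50 cells in the same order, and no cell held both. ICI 1 to 3 therefore held transcripts of both sexes in this cluster, while ICI 4 and isotype held Y-linked transcripts without Xist. Red cell globin also split the libraries, since Hbb-bs and Hba-a1 made up at most 0.00650% of cluster 10 UMIs in any of ICI 1 to 3, against 0.392% for ICI 4 and 1.27% for isotype.

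The levels of the marker genes were compared across the clusters. All 7 (Il1rl1, Il13, Arg1, Csf2, Calca, Hs3st1 and Rnf128) had their highest mean level in cluster 10 among the 17 clusters, in CPM (UMIs of a gene as a part of 1000000 UMIs of the cluster in a library, averaged over the 5 libraries). This is a description with no test, because the clustering used the same cells and genes. Il1rl1 stood at 352 CPM against 47.8 in the next highest cluster, regulatory T-like cluster 4. Il13 reached 465 CPM, and only cluster 1, of T cells, came near with 254. Hs3st1, a heparan sulfate sulfotransferase, reached 546 CPM against 96.8 in cluster 15. Arg1, the arginine-degrading enzyme arginase 1, reached 309.7 CPM against 16.1 in cluster 6. Rnf128, a ubiquitin ligase known for restraining T cell activation, reached 261 CPM against 16.4 in natural killer-like cluster 8. Of all UMIs in the table, cluster 10 held 90.0% of those of Hs3st1, 78.5% of Arg1, 73.0% of Rnf128, 65.1% of Csf2, 58.1% of Il1rl1, 45.1% of Calca and 42.9% of Il13, from 377 of 10275 cells. Among 11352 genes, the log-scale profile of cluster 10 was most like that of cluster 6, which holds gamma-delta T cells among others. Pearson r was 0.916 across genes, which are not independent replicates. T cell cluster 1 came next (r = 0.896).

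**Figure D1:**
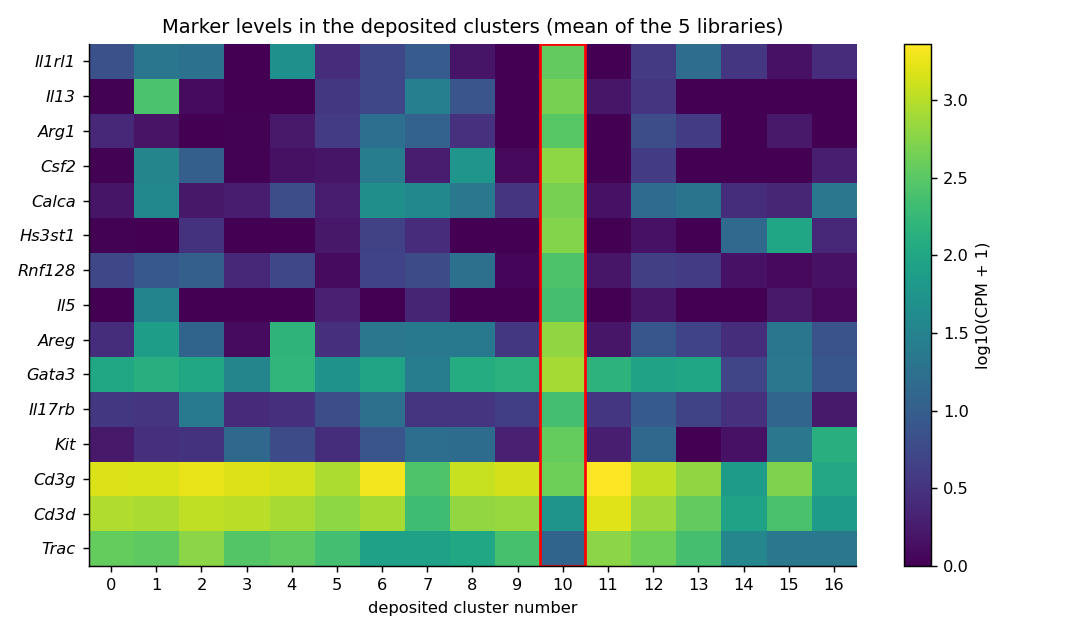
Mean level of 15 genes in each of the 17 deposited clusters, as log10(CPM + 1) averaged over the 5 libraries, with cluster 10 outlined. The 7 markers and Il5, Areg, Gata3, Il17rb and Kit are highest in cluster 10, whereas Cd3d and Trac are lowest there.

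Leading genes, ranked by fold over all other cells, included several outside that marker list. Stab2, which encodes a scavenger receptor, ranked 3 (528 CPM against 7.07 in other cells), Serpini1, encoding the protease inhibitor neuroserpin, ranked 5 (413 against 7.60), and Kit, the stem cell factor receptor, ranked 9 (367 against 8.65). The transcription factor Hlf stood at 229.8 CPM against 2.87 in other cells. Nmur1, the neuromedin U receptor, stood at 136 CPM against 0.977 in the next highest cluster. All 7 markers were among the 20 leading genes, but they were chosen with earlier results of these data known, so this is no check of the name.

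Markers of other cell types gave a mixed picture for T cells, regulatory T cells, type 3 innate lymphoid cells and B cells, and low levels for several others. The regulatory T cell list, which includes Il2ra, summed to 689 to 1499 CPM over the libraries, against 688 in other cells. Red cell genes summed to 4024 CPM in ICI 4 and 13381 in isotype, against 437 in other cells, and to at most 65.0 in ICI 1 to 3. Trac, the T cell receptor alpha constant gene, was lowest of all 17 clusters (10.99 CPM) and was seen in 2.92% of cells, against 10% in B-like cluster 14. By library, Trac was seen in 1.49% against 15.1% in ICI 4 and in 1.71% against 18.75% in isotype. In ICI 1 it was 4.88% against 3.28%, at median depths of 3440.5 and 1170 UMIs. ICI 2 and ICI 3 had 5 cluster 14 cells each, with a Trac UMI in 0. Cd3d, a subunit of the T cell receptor complex, was also lowest of the 17 (53.5 CPM). Cd3g, another subunit, stood at 411 CPM and ranked 14, and it was detected in 47.5% of cells. In ICI 4 the share was 47.8%, against 24.7% in cluster 14, at median depths of 3582 and 5060 UMIs. In isotype it was 35.9%, against 25%, at 3076 and 3338 UMIs. The beta constant gene Trbc2 stood at 253 CPM. The gamma constant gene Tcrg-C4 was higher here (141 CPM) than in any other cluster, although Trdc, the delta constant gene, stood at 8.66. In all, 254 of the 377 cells carried at least 2 UMIs of T cell receptor constant or Cd3 genes. Natural killer genes Ncr1, Klrb1c, Eomes and Tbx21 had 0 UMIs in every library, as did 9 of the 16 genes of that list. Il23r, Il22 and Il17f, of type 3 innate lymphoid cells, also had 0 UMIs, while Ltb, a lymphotoxin subunit made by many lymphocytes, stood at 705 CPM. The membrane proteins Tmem176a and Tmem176b, of the same type 3 list, stood at 281 and 317 CPM and were detected in 50.9% and 57.3% of cells. The summed level of that list, 883 to 2203 CPM, overlapped the 1188 CPM of other cells. The B cell list summed to between 350 and 422 CPM for each of ICI 1 to 3, to 91.9 for ICI 4 and to 282 for isotype, against 362 in other cells. Most of it was Ighm, the IgM heavy chain constant gene, found in 52.3% of cluster 10 cells, whereas Pax5 and Cd22 had 0 UMIs. Macrophage and monocyte genes summed to 152 to 216 CPM, against 4598 in other cells. All 8 eosinophil and neutrophil genes in the table were at 0. Calca, which thyroid C cells also express, was not accompanied by their other genes: Calcb, Chgb, Scg2 and Gfra4 had 0 UMIs in every library, and Chga had 6, all in isotype.

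The first question the design poses is whether cluster 10 takes a different share of thyroid CD45+ cells under ICI. It made up 5.38% of cells in ICI 1 (exact Clopper-Pearson 95% interval 4.30 to 6.64%), 4.92% in ICI 2 (3.78 to 6.29%), 4.39% in ICI 3 (3.28 to 5.73%) and 1.34% in ICI 4 (1.04 to 1.69%), against 8.65% in isotype (7.21 to 10.3%). All 4 ICI libraries lay below isotype, and ICI 4 lay below the other three. The ICI mean was 4.01% ± 1.83 (SD, n = 4), 4.65 percentage points under isotype. An exact two-sided permutation test over libraries gave p = 0.2, the smallest p that 4 libraries against 1 allow, so the design cannot reach 0.05. The intervals cover counting error only. A share also depends on the other cells: as a part of clusters 8 and 10 alone, cluster 10 made up 66.1%, 38.7%, 35.2% and 28.6% in ICI 1 to 4 and 60.6% in isotype, and ICI 1 then lay above isotype (exact permutation p = 0.6). Fewer cluster 10 cells and more of other cells cannot be told apart from shares.

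**Figure D2:**
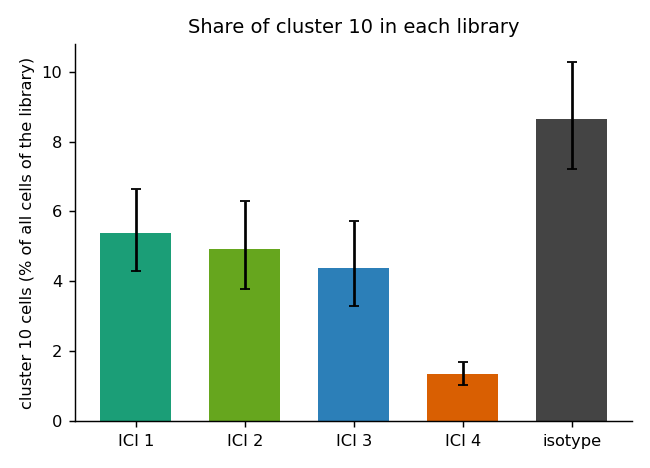
Share of cluster 10 among all cells of each library in percent, with bars for the value and whiskers for the exact 95% binomial interval, which covers counting error only. The 4 ICI libraries sit between 1.34% and 5.38%, all below the 8.65% of the isotype library.

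Secreted products split the libraries in a way that did not follow the treatment. Il13, the cytokine that drives mucus production and alternative macrophage activation, stood at 72.2, 37.1, 183 and 1259 CPM in ICI 1 to 4 and at 775 CPM in isotype. The ICI 4 and isotype values were thus both above those of ICI 1 to 3. Il5, the eosinophil growth factor, stood at 47.0, 33.0, 32.8 and 543 CPM in ICI 1 to 4 and at 516 in isotype. Csf2, which encodes the myeloid growth factor GM-CSF, stood at 57.8, 57.7, 37.5 and 1622 CPM against 1329 in isotype. Areg, an epidermal growth factor family member linked to tissue repair, stood at 32.5, 169, 149.9 and 1850.3 CPM against 959.8 in isotype. For all 3 genes the same pair of libraries was high. Ccl1, the ligand of the chemokine receptor CCR8, stood at 7.22, 20.6, 18.7 and 595 CPM against 634 in isotype. Calca, which encodes calcitonin and the neuropeptide CGRP, stood at 90.3, 198, 365 and 1163 CPM against 513 in isotype. Il4 was scarce in every library (8.24 to 36.0 CPM), and 5.59% of its UMIs over all cells lay in the cluster.

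Within the other markers the split was partial. Hs3st1 stood at 267, 243, 337 and 1143 CPM in ICI 1 to 4 and at 742 in isotype, again highest in ICI 4 and isotype. Arg1 ran the other way, at 321, 449, 365 and 228 CPM against 185 in isotype, so that every ICI library was above isotype. The receptor gene Il1rl1 varied less, at 318, 350.1, 384 and 424 CPM against 285 in isotype, with every ICI library above isotype. That pattern held for these 2 of the 7 markers and for 28.2% of all 5436 genes tested, so it does not set them apart. Rnf128 stood at 264, 292, 248 and 212 CPM against 290.0 in isotype, and the groups overlapped.

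**Figure D3:**
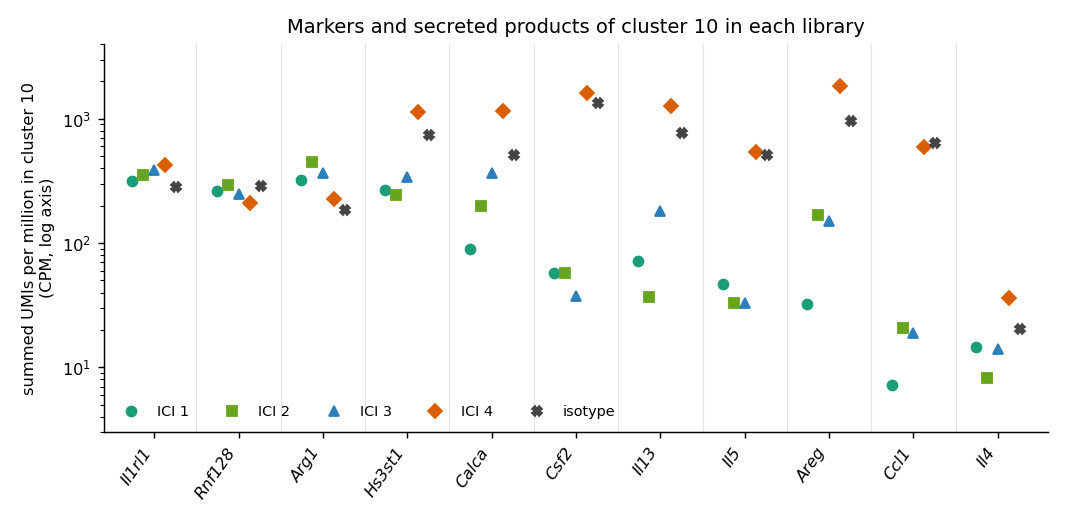
Level of 11 markers and secreted products in cluster 10 of each library, in CPM on a log axis, with 1 point per library. Il13, Il5, Csf2, Areg, Ccl1, Calca and Hs3st1 are higher in ICI 4 and isotype than in ICI 1 to 3, whereas Il1rl1 and Rnf128 lie close together in all 5.

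The same split was seen per cell. Of 6 products (Il13, Il5, Csf2, Areg, Calca and Ccl1), at least 3 were detected in 4 of 82 cells in ICI 1, 2 of 60 in ICI 2 and 3 of 51 in ICI 3. In ICI 4 the count was 36 of 67 cells (53.7%) and in isotype 45 of 117 (38.5%). After each cell was thinned to 1000 UMIs, which left out 11 shallower cells, at least 1 product was present in 19.5% of ICI 1 cells, 23.3% of ICI 2 cells and 28.9% of ICI 3 cells, and in 80.6% of ICI 4 and 67.5% of isotype cells. Single products were rarer than the combined figure: over all 377 cells, 21.8% held an Il13 UMI, 18.04% an Il5 UMI and 33.2% a Csf2 UMI, against 0 of 160 cells in B-like cluster 14 for each of the 3. In the thinned isotype cells, 63.6% of the 22 cells with Il13 also held Csf2, against 26.3% of those without it. In ICI 4 those shares were 38.9% of 18 cells and 32.7%.

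**Figure D4:**
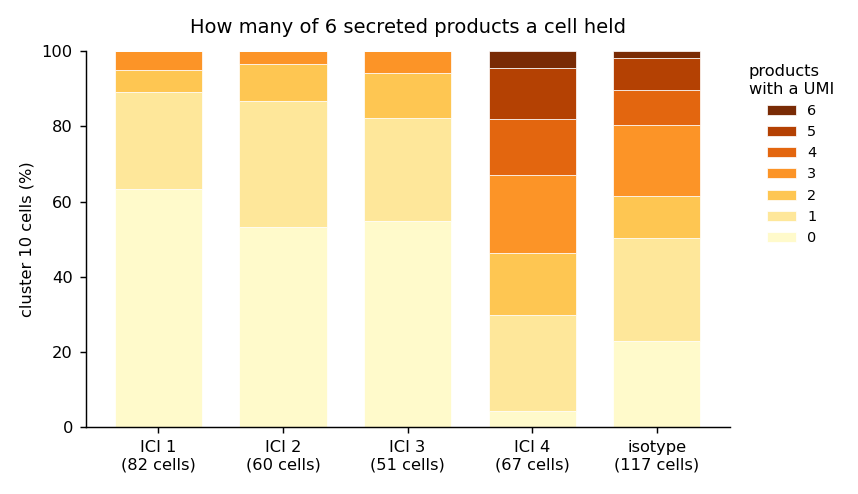
Share of cluster 10 cells, in percent per library, that held a UMI of 0 to 6 of the products Il13, Il5, Csf2, Areg, Calca and Ccl1, without thinning. In ICI 4 and isotype 53.7% and 38.5% of cells held 3 or more, against 3.33% to 5.88% in ICI 1 to 3.

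Because ICI 1 to 3 held cells of both sexes, the products were also summed over cells with a Y-linked UMI only, which left 15, 21, 15, 38 and 50 cells and no test. Their summed level was 253, 977 and 635 CPM for ICI 1 to 3, against 7436 for ICI 4 and 5711 for isotype. In the cells with Xist it was 295, 258 and 952 CPM in ICI 1 to 3. Whether sex had a part in the split was not tested. Globin also moved with the split: cells with 10 or more globin UMIs numbered 1 in ICI 4, 3 in isotype and 0 in each of ICI 1 to 3. Folds without these cells are given at the end, and whether globin had a part in the split was not tested.

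Il13, Il5 and Csf2 lie on chromosome 11 in the RefSeq table of build GRCm38.p6, with Il13 at chr11:53631323-53634702, Il5 at chr11:53720794-53725103 and Csf2 at chr11:54247270-54249899. Their upstream windows are shown because the 3 lie close together and were high in the same libraries, next to that of Il1rl1 at chr1:40404864-40465418, which varied less. Each is the 250 bases before a RefSeq start site, read 5′ to 3′ on the gene's strand, with capitals for the letters AGATAA, the variant that ends in G (AGATAG), the variant that starts with T (TGATAA) and the variant with both changes (TGATAG) on either strand, the core that GATA factors bind. The windows are chr11:53634703-53634952 (minus strand) for Il13, chr11:53720544-53720793 (plus) for Il5, chr11:54249900-54250149 (minus) for Csf2 and chr1:40429320-40429569 (plus) for Il1rl1, at the upstream of 2 listed starts.
Il13: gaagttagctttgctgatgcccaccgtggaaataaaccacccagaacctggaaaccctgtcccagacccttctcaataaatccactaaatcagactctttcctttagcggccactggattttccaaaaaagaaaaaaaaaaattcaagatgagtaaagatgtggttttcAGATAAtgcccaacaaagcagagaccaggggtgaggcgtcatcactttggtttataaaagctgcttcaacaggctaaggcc
Il5: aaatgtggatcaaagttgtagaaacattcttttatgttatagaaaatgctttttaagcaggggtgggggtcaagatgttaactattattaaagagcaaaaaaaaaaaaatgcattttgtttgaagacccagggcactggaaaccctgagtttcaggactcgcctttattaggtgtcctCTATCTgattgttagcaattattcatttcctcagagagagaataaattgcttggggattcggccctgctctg
Csf2: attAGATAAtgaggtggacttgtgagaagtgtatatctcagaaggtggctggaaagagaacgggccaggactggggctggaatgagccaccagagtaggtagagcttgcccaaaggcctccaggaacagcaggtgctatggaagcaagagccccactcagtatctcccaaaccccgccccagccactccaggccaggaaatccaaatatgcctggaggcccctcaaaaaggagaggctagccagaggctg
Il1rl1: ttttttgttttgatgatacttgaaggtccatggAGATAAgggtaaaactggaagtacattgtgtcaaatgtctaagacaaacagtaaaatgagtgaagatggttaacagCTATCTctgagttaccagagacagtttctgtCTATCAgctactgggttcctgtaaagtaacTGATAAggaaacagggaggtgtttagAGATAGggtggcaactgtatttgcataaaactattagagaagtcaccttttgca
The Il13, Il5 and Csf2 windows each held 1 match, 81, 72 and 247 bases before the start, and the Il1rl1 window shown held 5. The window at the other listed Il1rl1 start held 1 match, as many as each of the product windows shown. Of the other genes high in the same libraries, the windows of Ccl1 and Calca held 1 match each, and those of Areg and Hs3st1 held 0. Such letters occur in 26.5% of 32851 windows of this length, and a match is a description of the letters, not a binding site.

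Receptors for alarmins and cytokines came next. Il17rb, the IL-25 receptor chain, stood at 303, 297, 253 and 139.9 CPM in ICI 1 to 4 and at 141 in isotype, highest in cluster 10 of all clusters and lower in ICI 4 and isotype than in ICI 1 to 3. Il7r, the receptor chain shared by IL-7 and TSLP, stood at 1665, 1178, 1359 and 911 CPM against 867 in isotype. Il2ra, the high-affinity IL-2 receptor chain, went the other way, at 296, 338, 309 and 536 CPM against 441 in isotype. Icos, a costimulatory receptor, stood at 643, 408, 595 and 1063 CPM against 608 in isotype, and the groups overlapped. Crlf2, the other TSLP receptor chain, was low (12.4 to 50.6 CPM). For the alarmins themselves, Il33 had 0 UMIs among the other CD45+ cells of ICI 1 to 3, 13 for ICI 4 and 15 for isotype. Per UMI of those cells, this was 0.406 CPM in ICI 4 and 1.94 in isotype. At such levels, 0 UMIs in the smaller libraries ICI 1 to 3 say little. Tslp in the other cells stood at 1.69, 0, 0 and 1.15 CPM in ICI 1 to 4 and at 6.72 in isotype. The sort for CD45+ cells removes the stromal cells that make Il33.

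Receptors for neuropeptides and lipids went both ways. Of 15 such genes tested, 9 were below all of ICI 1 to 3 in both ICI 4 and isotype, where 44.1% of all 5436 genes were, and 3 were above, where 12% of all genes were, so these counts set the receptors little apart from other genes. Nmur1 stood at 152, 194, 225 and 52.0 CPM in ICI 1 to 4 and 59.0 in isotype. Vipr2, the receptor for vasoactive intestinal peptide, stood at 166, 140.0, 122 and 44.0 CPM against 41.1 in isotype. The leukotriene receptor Cysltr1 stood at 462, 461, 351 and 188 CPM against 203 in isotype. P2ry1, a receptor for extracellular ADP, stood at 148, 165, 178 and 28.0 CPM against 46.2 in isotype. Ramp1, a subunit of the CGRP receptor, stood at 849, 779, 1003 and 444 CPM against 534 in isotype. Ramp3, which pairs with the same receptor family, was the exception, at 43.3, 37.1, 89.0 and 1083 CPM against 349 in isotype. Stab2 (748, 675, 675 and 284 CPM, against 259 in isotype), Serpini1 (712, 523, 665 and 71.9, against 92.4) and Kit (488, 432, 473 and 252, against 189.9) showed the same direction as Nmur1.

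Among the transcription factors of the lineage, Gata3 and Id2 varied less than the products. Gata3 stood at 813, 791, 895 and 939 CPM in ICI 1 to 4 and at 606 in isotype, and it was found in 79.6% of cells. Id2, an inhibitor of DNA binding that all innate lymphoid cells need, stood at 1004, 910.3, 942 and 923 CPM against 572 in isotype. Every ICI library was above isotype for both, and for 5 of the 21 lineage factors tested in all, against 28.2% of all genes. This pattern therefore does not set the factors apart from other genes. Rora, the nuclear receptor that ILC2 development requires, stood at 498, 445, 487 and 1039 CPM against 547 in isotype. Bhlhe40, a factor induced by cytokine and receptor signals, followed the product genes, at 90.3, 218, 178 and 1347 CPM against 898 in isotype. Tcf7, a T lineage and precursor factor, was the lowest of 17 clusters in cluster 10, at 4.69 to 69.3 CPM.

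Genes induced within minutes to hours of stimulation or dissociation followed the product genes. Of the 24 immediate early and stress genes tested, 23 were above all of ICI 1 to 3 in both ICI 4 and isotype, against 12% of all genes. The same held for 22 of the 24 in natural killer-like cluster 8 (14.3% of all genes there) and for 11 of the 24 in all other cells together (26.2% of all genes). Nr4a1, an orphan nuclear receptor, stood at 101, 367, 305 and 3245 CPM in ICI 1 to 4 and at 2040.2 in isotype. Nr4a1 was also seen in 46.9% of B-like cluster 14 cells, against 42.4% here, shares that pool libraries in unlike proportions. In ICI 4 it was seen in 72.6% of cluster 14 cells, against 89.6% here. In isotype it was 81.25% of 16 cells against 71.8% here, and in ICI 1 6.56% against 3.66%. ICI 2 and ICI 3 had 5 cluster 14 cells each, with shares also above those here. Junb, an AP-1 subunit, stood at 1015, 2377, 1818 and 4288 CPM against 3593 in isotype. The NF-kappaB inhibitors followed: Nfkbia stood at 318, 679.6, 412 and 3541 CPM against 2246 in isotype, and Tnfaip3 at 72.2, 284, 159 and 1495 against 737. Of the 8 effector products tested, 6 were above in both libraries in cluster 10 (12% of all genes). In cluster 8 (14.3% of all genes) and in all other cells (26.2%) it was 3 each. These 8 products passed the count filter in cluster 10, which 1 high library can be enough for, and no such filter was set in the other cells. The counts therefore cannot compare cluster 10 with the other cells.

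**Figure D5:**
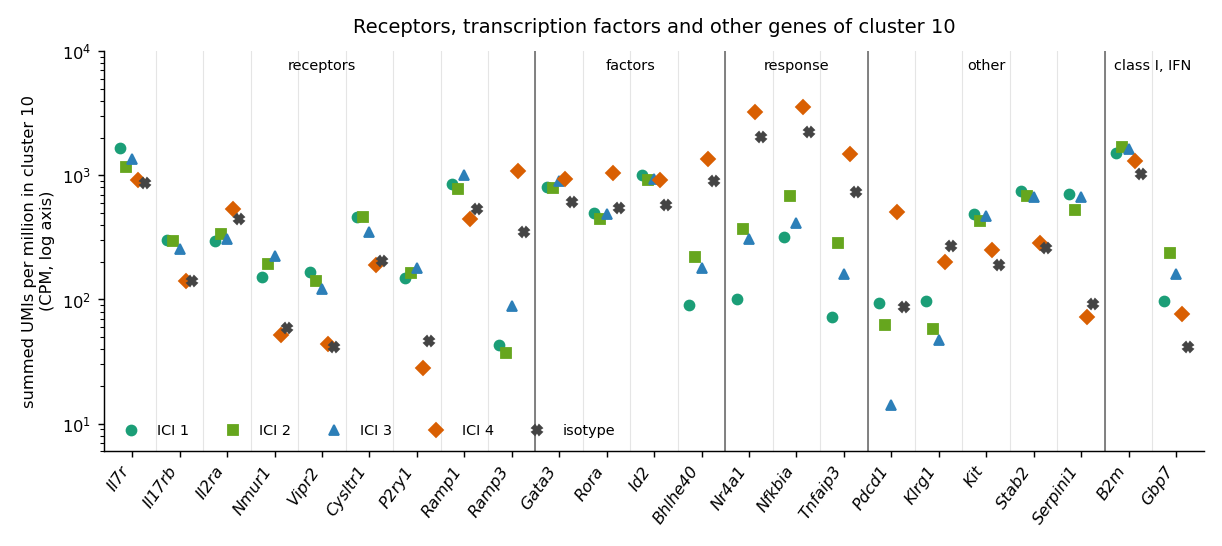
Level of 23 receptors, transcription factors and other genes in cluster 10 of each library, in CPM on a log axis, with 1 point per library. Nmur1, Vipr2, Cysltr1, P2ry1, Stab2, Serpini1 and Kit are lower in ICI 4 and isotype than in ICI 1 to 3, whereas Bhlhe40, Nr4a1, Nfkbia, Tnfaip3 and Ramp3 are higher.

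Similarity over the whole profile showed the same grouping. Across 9567 genes, ICI 4 and isotype correlated at r = 0.921 and ICI 1 to 3 among themselves at 0.907 to 0.913, while the pairs across ran from 0.817 to 0.856. These correlations are across genes within libraries that differ in depth, and the genes are not independent replicates. The titles of ICI 1 to 3 share a stem that the titles of ICI 4 and isotype lack. The ICI 4 title holds a tag that can be read as a month and year, which the labels do not explain. The labels give no date or batch for isotype. ICI 1 to 3 and isotype thus differ in treatment and in these library features at once, which cannot be told apart, and ICI 4 is the one ICI library that resembles isotype in them.

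The checkpoint receptors targeted by the antibodies differed in level. Pdcd1, which encodes PD-1, stood at 93.9, 61.8, 14.1 and 504 CPM in ICI 1 to 4 and at 87.2 in isotype, so that ICI 4 was the highest. In the other cells of the same libraries Pdcd1 stood at 49.3, 131, 131 and 128 CPM and at 45.5 in isotype, so the cluster was above them in ICI 1, ICI 4 and isotype and below them in ICI 2 and ICI 3. Cluster 10 ranked 4 of the 17 clusters for Pdcd1, and 35.8% of its ICI 4 cells held a UMI. Ctla4 stood at 8.64 CPM on average and was seen in 1.06% of cells, against 902 CPM in regulatory T-like cluster 4. Klrg1, an inhibitory lectin receptor of mature ILC2s, stood at 97.5, 57.7, 46.9 and 199.8 CPM against 272 in isotype, below isotype in every ICI library. Klrg1 was singled out after its values were seen.

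Class I antigen presentation genes were higher in the ICI libraries more often than other genes. Of 15 class I genes tested, 11 were above isotype in every ICI library, against 28.2% of all genes, and all 15 had a positive fold (median log2 fold change 0.48, against 0.05 over all genes tested). H2-D1, a classical class I heavy chain, stood at 2973, 2756, 2376 and 3649 CPM against 2056 in isotype. B2m, the light chain, stood at 1524, 1676, 1626 and 1311 CPM against 1021 in isotype. H2-K1 ranged widely, at 130.03, 729, 609 and 252 CPM against 118 in isotype, and heavy chain genes are polymorphic and alike, so their counts are uncertain. Psmb8, an immunoproteasome subunit, stood at 426, 465, 426 and 184 CPM against 254 in isotype. Gbp7, an interferon-induced GTPase, stood at 97.5, 239, 159 and 75.9 CPM against 41.1 in isotype, with every ICI library above isotype. Of 19 interferon response genes tested, 8 were above isotype in every ICI library and 3 below (7.01% of all genes), so the interferon list went both ways. Class I genes were also above isotype in every ICI library in other cells, for 14 of these 15, against 28.4% of all genes there. Class II genes ran opposite to class I: of 6 tested, 4 were below isotype in every ICI library, 5 had a negative fold (median log2 fold change -1.96) and 0 passed adjustment. They rest on few UMIs, and 1 isotype cell held 75.5% of the UMIs of Cd74, the class II invariant chain, of its library in the cluster.

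The second question is which genes differ between ICI and isotype within cluster 10. With edgeR's quasi-likelihood test and Benjamini-Hochberg adjustment over 5436 genes, 0 genes passed an adjusted p of 0.05 (0% of those tested), and 157 had an unadjusted p under 0.05 (2.89%). The lowest adjusted p was 0.705, and DESeq2 also called 0. The isotype library is alone in its group, so its spread was taken from the ICI libraries, among which ICI 4 stands apart. The log2 fold change was -1.03 (SE 1.60) for Il13, -1.58 (SE 1.83) for Csf2, -1.70 (SE 1.45) for Il5, 0.24 (SE 0.40) for Gata3 and 0.11 (SE 0.43) for Il1rl1, and none passed. SE here is the size of the fold divided by the square root of the test's F statistic, not a value that edgeR reports. Without ICI 4, 483 of 5435 genes were called (8.89%), 77 higher and 406 lower in ICI 1 to 3. These included 4 of the 7 markers, 7 of the 8 effector products and 22 of the 24 immediate early and stress genes, all lower in ICI 1 to 3. Il13 then had a log2 fold change of -3.44 (SE 0.37, adjusted p = 9.80e-08 by the same edgeR test) and Csf2 of -5.10 (SE 0.27, adjusted p = 1.31e-13). ICI 4 against isotype, a value with no test, was 0.69 for Il13 and 0.29 for Csf2 on the log2 scale, the opposite sign. With only the 139 cells that held a Y-linked UMI, edgeR called 0 of 2210 genes, with 25 at an unadjusted p under 0.05.

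Of the genes with the lowest unadjusted p and every ICI library on 1 side of isotype, none passed adjustment (adjusted p = 0.985 for each by edgeR). Higher in ICI by this ranking were Prelid3b, Apol7b, Med15, Cers5, Atf7ip, Add3, Mnat1, Fopnl, Stk38 and Igf2r. Prelid3b stood at 72.2, 70.0, 56.2 and 40.0 CPM in ICI 1 to 4 and at 10.3 in isotype, from 10 to 20 UMIs in each ICI library and 4 in isotype. Lower by this ranking were, among others, Pth, Atg12, Mvb12b, Txnl1, Drap1, Romo1, Rfx7, Cd3d and Gpr183. Mvb12b, a subunit of the endosomal sorting complex, stood at 79.5, 107, 93.7 and 75.9 CPM against 175 in isotype. Gpr183, an oxysterol receptor that guides lymphocyte migration, stood at 75.9, 82.4, 51.5 and 91.9 CPM against 159 in isotype. Pth, the parathyroid hormone gene, had 33 UMIs in isotype cells of the cluster, 1 in ICI 4 and 0 in ICI 1 to 3, while 5917 Pth UMIs lay in other isotype cells.

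A change is particular to cluster 10 only if it differs from that of other cells. The interaction of treatment with cell class, fitted by edgeR with the library as a block, called 2 of 11975 genes (0.0167%) against all other cells, the globins Hbb-bt and Hbb-bs. Against natural killer-like cluster 8 it called 9 of 7109 (0.127%): Hbb-bs, Hbb-bt, Hba-a1, Hba-a2, the haem synthesis enzyme Alas2, the receptor segment Trbv29, Plac8, Isg20 and Cxcl10. Of the Hbb-bs UMIs in isotype cells of the cluster, 74.3% came from 1 cell, and for Trbv29 all 16 did. No type 2 marker, product or receptor was called in either test. Without ICI 4, 383 genes were called against all other cells and 34 against cluster 8.

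The deposited cell cycle calls put 17.1%, 45%, 33.3% and 0% of cluster 10 cells of ICI 1 to 4 in S or G2M phase, against 5.13% in isotype (exact permutation p = 0.6 over libraries). For ICI 4, 0 of 67 cells allows a share of up to 5.36% (exact 95% limit). Most calls were of S phase, in 14, 20, 15, 0 and 6 cells of ICI 1 to 4 and isotype. After thinning, 0 cells of any library held 2 or more UMIs of Mki67, Top2a, Tk1 and Stmn1, so these 4 genes do not tell the libraries apart. The summed level of the 24 cell cycle genes was 1394, 2101, 1382 and 1231 CPM in ICI 1 to 4 and 1478 in isotype, highest in ICI 2, against 5452 in other cells. Mcm6, a subunit of the replicative helicase singled out after its values were seen, stood at 54.2, 74.1 and 46.9 CPM in ICI 1 to 3 and at 10.3 in isotype, with 5 UMIs in ICI 4 and 4 in isotype. Its adjusted p by edgeR was 0.985, and 0.0454 without ICI 4.

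Type 2 cytokine transcripts also lay outside the cluster. Outside cluster 10, Il13 had 1, 1, 7, 720 and 182 UMIs in the 5 libraries (ICI 1 to 4, then isotype). Of the 720, 583 lay in 19 cells of cluster 1, and of the 182, 169 lay in 2 cells of cluster 1. Il5 outside the cluster had 5, 0, 0, 260 and 12 UMIs in the same order, and Il4 had 10, 12, 15, 339 and 63. ICI 4 was also the largest library. Per UMI of the other cells, Il13 stood at 0.241, 0.277, 1.68, 22.5 and 23.5 CPM in the 5 libraries, highest in ICI 4 and isotype. The isotype value rests mostly on 1 cell, which held 89.0% of those 182 UMIs, against 31.25% for the highest cell of ICI 4. Il5 in other cells stood at 8.11 CPM in ICI 4 and 1.55 in isotype, and Il4 at 10.6 and 8.14. Cluster 10 thus held 84.8% to 95.2% of the Il13 UMIs of ICI 1 to 3 but 30.4% of those of ICI 4 and 62.4% of those of isotype.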

How the data were processed

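The counts used are the deposited UMI counts of 18767 genes (10275 cells), made by the authors with Cell Ranger and Seurat on mouse build mm10, per the submitters' processing notes, which give no version. The deposited cell table gives each cell's library, mitochondrial percent (up to 25.0%, per the file headers), cell cycle scores with phase calls, and a clustering of the integrated cells into 17 groups (resolution 0.4). The deposited score values were used only through the phase calls. A second deposited clustering put 78, 59, 51, 67 and 115 of the cluster 10 cells of ICI 1 to 4 and isotype under 1 number each. Cluster 10 and its markers, the gene lists and the tests were chosen with earlier results of these data known, and naming the cells from 7 markers may differ from the study's own naming. No doublet caller was run.

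Counts were summed per library over cluster 10, over cluster 8 and over all other cells. edgeR 4.0.16 fitted quasi-likelihood models (TMM, filterByExpr with a minimum count of 10, Benjamini-Hochberg, threshold 0.05). With 1 isotype library, a gene could pass the filter through that library alone. Folds over other cells used a pseudocount of 10 CPM and genes seen in at least 20% of cells. Shares carry exact Clopper-Pearson 95% intervals and an exact two-sided permutation test compared the libraries. Cells were thinned to 1000 UMIs for shares of cells with a transcript. The script was checked on simulated data.

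Alternatives were DESeq2 1.42.0, RLE scaling, leaving out the filter or each ICI library in turn, summing ICI 1 to 3, setting ICI 4 alone against isotype, other denominators and cell gates, lower copies of shared barcodes removed, each gene's highest cell left out, cells with 2 or more T cell receptor constant or Cd3 UMIs removed, and thinning. Removing globin-bearing cells and keeping cells with a Y-linked UMI were added after seeing the data. Named genes were the listed markers, products, receptors and factors, up to 6 of each other list by mean level, the 20 leading genes, and, as few passed, up to 10 in each direction by unadjusted p with every ICI library on 1 side of isotype, at least 30 UMIs and no cell above 25% of the UMIs in a library of the higher group. Receptor and immunoglobulin segments, mitochondrial, ribosomal protein and sex-linked genes and unnamed models stayed out of that ranking. Some genes that this rule names are not reported here. Promoter windows and positions are from RefSeq, GRCm38.p6, the assembly that mm10 denotes.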

Additional observations from a re-analysis of the deposited data

Results flagged for a closer look

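Within the 4 ICI libraries, 46 of the genes named with values were checked for a library that stands apart. Dixon's test was used at the 95% level, which chance alone passes in about 1 of 20 groups. ICI 4 stood apart for 15 of the 46 genes. The share over all genes was not computed, and ICI 4 differed from ICI 1 to 3 over the whole profile. The count therefore does not set these genes apart from others. Its level was above those of ICI 1 to 3 for Il13 (1259 CPM), Csf2 (1622), Hs3st1 (1143), Il5 (543), Areg (1850.3), Ccl1 (595), Pdcd1 (504), Ramp3 (1083), Rora (1039), Bhlhe40 (1347), Nr4a1 (3245), Nfkbia (3541) and Tnfaip3 (1495). It was below them for Stab2 (284 CPM) and Psmb8 (184). ICI 1 stood apart for Trac (21.7 CPM, from 6 UMIs).

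Genes whose ICI against isotype difference in cluster 10 differed from that in other cells, by the edgeR interaction term, included 5 red cell genes. Against all other cells, the log2 difference of folds was -8.71 for Hbb-bt and -4.10 for Hbb-bs. Against cluster 8 it was -8.31 for Hbb-bs, -14.4 for Hbb-bt, -8.58 for Hba-a1, -8.55 for Alas2 and -8.28 for Hba-a2, and also -7.40 for Trbv29, -6.50 for Plac8, -3.95 for Isg20 and -5.88 for Cxcl10. Most rest on libraries at 0 UMIs, so these fitted values depend on the prior count and are no bound on the change. Without each gene's highest cell, 1 gene was still called against all other cells and 2 against cluster 8.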

How the results depend on the processing

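No paired analysis was possible because the labels give the groups no shared replicate numbers and isotype is 1 library. Of 501 alternative values for the log2 folds of 36 named genes, 456 kept their direction and, where an adjusted p was given, their side of the threshold. ICI 4 against isotype alone has no p-value, so its values were judged by direction only. A further 29 passed the threshold where the reported fit did not, nearly all of them without ICI 4. The remaining 16 changed direction, none of them past the threshold. 25 genes never changed direction. ICI 4 against isotype alone gave 0.69 for Il13, 0.29 for Csf2, 1.16 for Calca, 0.62 for Hs3st1, 0.074 for Il5, 0.94 for Areg, 0.67 for Nr4a1 and -0.16 for Nmur1. With ICI 1 to 3 summed, Calca was 0.35 and Areg 0.0045. With only cells holding a Y-linked UMI, Il1rl1 was -0.031 and Rnf128 0.16. Without the 4 cells that held 10 or more globin UMIs, Il13 was -0.95 and Csf2 -1.47, and all 36 folds kept their direction. Leaving out each ICI library in turn gave -0.12 to 0.18 for Il1rl1, -1.67 to 0.043 for Calca and -0.98 to 1.25 for Pdcd1.

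The share difference was -7.32 percentage points for ICI 4 alone and -5.11 to -3.76 with each ICI library left out. Without clusters 2, 5 and 11 in the denominator it was -10.6 points, and -18.5 points within clusters 8 and 10. The phase difference was 18.7 points, 11.7 to 26.7 with each library left out, and 0 when counted by 4 proliferation genes, which no cell of any library passed.

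Genes called within cluster 10 numbered 3 without a filter, 1 without each gene's highest cell, 4 without cells holding T cell receptor or Cd3 UMIs, and 0 to 483 with each library left out, 483 being without ICI 4. Against all other cells 2 genes were called, 4 without a filter, 1 without the highest cell, and 0 to 383 with each library left out, 0 without ICI 1, 10 without ICI 2 and 383 without ICI 4. Against cluster 8, 9 were called, 17 without a filter, 2 without the highest cell, and 4 to 34 with each library left out, 4 without ICI 1 and 34 without ICI 4. The cause of these changes was not tested. With 51 to 117 cells per library, genes with few UMIs were compared with little precision.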
